A study of Mus musculus with 6 samples.

Results

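The genes described here are 35 genes of T lymphocytes and of cytotoxic lymphocytes, measured in pancreatic islet cells. They were taken as a fixed list of symbols, and a probe was assigned to a gene when its RefSeq accession belonged to that symbol. All 35 genes had a probe, 45 probes in all, among the 32854 genes and unnamed transcripts that the array distinguishes. The exoNOD samples are dispersed islet cells of male C57Bl/6N mice that were exposed for 72 h to exosomes at 50 µg/ml (3 arrays). Exosomes are small membrane vesicles that cells shed, and these came from CD4+CD25- T lymphocytes of the diabetes-prone NOD strain. The control samples are islet cells of the same strain and sex cultured for 72 h with no exosomes (3 arrays). The 3 experiments used different preparations of islets and of exosomes. The ages of the mice are not given in the sources used here.

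A T lymphocyte recognises a peptide held by an MHC molecule through its T cell receptor, whose CD3 chains pass the signal to the kinases Lck and Zap70 and to the adaptor Lat. CD4 or CD8 binds the MHC molecule beside the receptor, and a second signal comes from costimulatory receptors such as CD28. Cytotoxic T lymphocytes and natural killer cells kill by releasing perforin and granzymes, and T lymphocytes that enter the islets destroy beta cells in autoimmune diabetes. The donor cells of the exosomes were selected as CD4-positive and free of CD25, the protein encoded by Il2ra.

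Total RNA was labelled with Cy3 and read on 1-colour Agilent mouse arrays. A level below is a log2 signal minus that of the array's 75th percentile, changes are exoNOD minus control, and values on single arrays are given for replicates 1, 2 and 3 in that order. A level belongs to its probe and is not compared between genes. Between 80.8% and 81.8% of spots on exoNOD arrays and between 78.1% and 81.6% on control arrays were well above background, and the median signal was 121 to 140 on exoNOD arrays and 112 to 117 on control arrays. By their scan times, exoNOD replicate 1 and all controls were scanned together, while exoNOD replicates 2 and 3 were scanned later, with no control. The islet label fits its markers, since 14 of 14 endocrine genes, such as Ins2 and Gcg, were well above background on all arrays. Arrays of equal replicate number deviated together and were taken as pairs, so changes were fitted in limma without and with the replicate number as a block. The labels do not say whether samples of equal number share a preparation.

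On the 3 exoNOD arrays, 31, 28 and 28 of the 35 genes were well above background with at least 1 probe, against 27, 26 and 29 on the 3 control arrays. Detection hardly separated the groups: 25 genes were detected on all arrays, 8 on some and 2 on none. Detection touched more exoNOD than control arrays for 5 genes, which were Cd3d, Tcf7, Lef1, Bcl11b and Gzmb, and more control than exoNOD arrays for Ctla4 and Sh2d1a. In all, 27 genes were tested, those with a probe that every array of 1 group or the other detected. Bcl11b and Gzmb passed this filter only through the exoNOD arrays, which favours a positive change. In such bulk RNA, fewer cells of a type and less RNA per cell cannot be told apart. Nor can RNA brought in by the exosomes be told apart here from RNA made by islet cells or by lymphocytes among them, because every exoNOD sample and no control received exosomes.

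**Figure D1:**
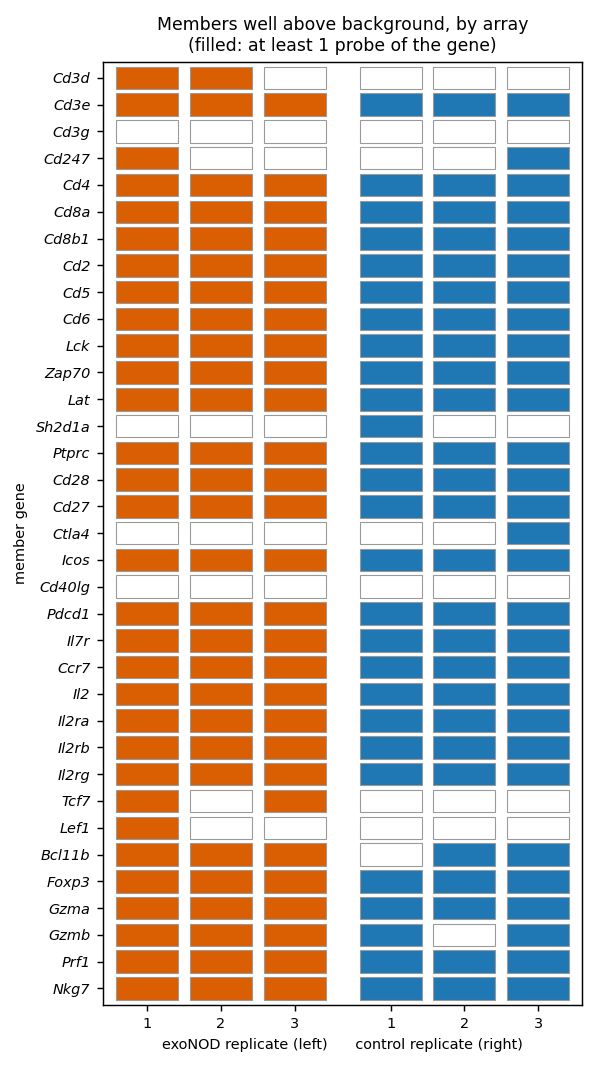
Detection of the 35 genes (rows, grouped by role) on the 3 exoNOD arrays (orange, left) and the 3 control arrays (blue, right). A filled square marks a gene with at least 1 probe well above background; 25 rows are filled throughout, and the rows of Cd3g and Cd40lg are empty.

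Of the 4 chains of the CD3 complex, which carry the signal of the T cell receptor, 1 could be tested. Cd3e was bright on every array, with levels of 3.25, 3.63 and 3.15 in exoNOD cells, against 3.84, 3.33 and 3.40 in control cells. The groups overlapped, and the change of −0.18 ± 0.17 (SE, n = 3 per group) did not pass (limma adjusted p = 0.604). Cd3g was detected on 0 arrays, with readings of −8.34, −8.09 and −8.11 in exoNOD cells, against −8.09, −8.15 and −8.37 in control cells. Cd3d was detected on 2 exoNOD arrays (−6.22 and −5.35, with −7.43 on the third), against 0 control arrays (−6.82, −6.59 and −6.75). Cd247, the zeta chain, was detected on 1 exoNOD array and 1 control array. Its readings were −6.24, −6.10 and −6.34 in exoNOD cells, against −6.36, −6.28 and −5.87 in control cells. Of these defining genes, 1 of 4 was therefore measurable in both groups, by a single probe. The other chains were detected on few arrays or none, and whether the bright probe reads only Cd3e was not tested. The constant genes of the T cell receptor itself had no probe with a matching accession and were not analysed here.

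The coreceptors and adhesion molecules that sit beside the receptor were all tested, and 6 of 6 had a positive change, from 0.13 to 0.62, although Cd8a turned negative after quantile normalization and Cd6 with median scaling. Cd4, the coreceptor of helper cells, had 1.85, 2.33 and 2.21 in exoNOD cells, against 1.98, 1.74 and 1.71 in control cells, a change of 0.32 ± 0.14 (limma adjusted p = 0.303). ExoNOD replicate 1 lay among the controls, and both other exoNOD arrays lay above them. A second Cd4 probe, printed in 10 copies, had −3.48, −3.05 and −3.51 in exoNOD cells, against −3.61, −3.80 and −3.60 in control cells. Its change was also 0.32, and here all exoNOD arrays lay above all controls. Both Cd4 probes read at very different levels, and whether each reads only Cd4 was not tested.

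Cd8a, one chain of the coreceptor of cytotoxic cells, had −4.84, −4.50 and −4.73 in exoNOD cells, against −4.91, −5.02 and −4.79 in control cells. Its change of 0.22 ± 0.18 did not pass (limma adjusted p = 0.559) and became −0.0029 after quantile normalization. A second, dim Cd8a probe was detected on 2 of 3 arrays in each group and differed the other way, by −0.52. Cd8b1, the other chain, had −4.13, −3.50 and −3.40 in exoNOD cells, against −4.21, −4.36 and −4.23 in control cells (change 0.59 ± 0.21, limma adjusted p = 0.250). ExoNOD replicate 1 was close to the controls, and the other exoNOD arrays were clearly higher.

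Cd2, an adhesion receptor, had −5.22, −4.93 and −5.07 in exoNOD cells, against −5.60, −5.58 and −5.34 in control cells, a change of 0.43 ± 0.19 (limma adjusted p = 0.302) with no overlap of the groups. This value comes from 10 spots per array, of which 8 over all arrays were left out as marked. A second, dimmer Cd2 probe was detected on 2 exoNOD arrays and 0 control arrays. Cd5, which dampens receptor signalling, had −3.18, −2.30 and −2.76 in exoNOD cells, against −3.51, −3.37 and −3.23 in control cells (change 0.62 ± 0.22). It did not pass (limma adjusted p = 0.247) but rose with the replicate block (0.0488). All exoNOD arrays lay above all controls, by the least in replicate 1. Cd6, a relative of Cd5, had a difference of 0.13 (0.689), and its second probe one of 0.53 (0.354 in a fit of single probes).

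Of the signalling proteins, Lck alone passed in a fit. Lck, the kinase that starts signalling at the receptor, had −0.20, −0.24 and 0.76 in exoNOD cells, against −0.91, −0.74 and 0.09 in control cells. The groups overlapped, because replicate 3 was the brightest array of each group, but each exoNOD array exceeded the control of equal number, by 0.71, 0.50 and 0.67. The change of 0.63 ± 0.32 did not pass without the block (limma adjusted p = 0.356) and rose with it (± 0.09, 0.00344). Zap70, the next kinase, had a difference of 0.04 (0.902) and with its other probe 0.36 (0.338 in a fit of single probes). The adaptor gene Lat had a difference of 0.28 (0.391).

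Ptprc, which encodes the CD45 phosphatase found on all leukocytes, had −3.81, −3.51 and −4.01 in exoNOD cells, against −3.83, −3.65 and −3.69 in control cells. Its change was −0.05 ± 0.17 (limma adjusted p = 0.900), and the exoNOD arrays lay on both sides of the controls. Sh2d1a, the adaptor SAP of activated lymphocytes, was detected on 0 exoNOD arrays (−8.80, −8.52 and −8.53) and on 1 control array, replicate 1 (−4.81, with −8.38 and −8.79 on the others).

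Among costimulatory and checkpoint receptors, 4 of 6 genes were tested and 0 passed in either fit. The difference was 0.35 (limma adjusted p = 0.331) for Cd28, the main costimulatory receptor, 0.43 (0.427) for the inhibitory receptor gene Pdcd1 and 0.19 (0.561) for Cd27. Icos, a relative of Cd28, had −0.81, −0.81 and −0.77 in exoNOD cells, against −0.60, −0.81 and −0.74 in control cells (change −0.08, 0.723). Its second probe differed the other way, by 0.42 (0.334 in a fit of single probes), so the direction of Icos depends on the probe. Cd40lg, the ligand with which helper cells activate B lymphocytes, was not detected on any array. The inhibitory receptor gene Ctla4 was detected on 0 exoNOD arrays (−6.78, −6.84 and −6.99) and on 1 control array, replicate 3 (−3.66, with −6.78 and −6.50 on the others).

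Cytokine and homing genes were all tested and had changes from 0.17 to 0.68, of which the lowest, that of Il2rg, turned negative after quantile normalization. Il7r, the receptor for the survival cytokine interleukin 7, had −3.47, −3.51 and −2.71 in exoNOD cells, against −4.13, −4.61 and −2.99 in control cells. As for Lck, replicate 3 was high in both groups, and each exoNOD array exceeded the control of equal number, by 0.28 in pair 3 and by more in both others. Il7r did not pass without the block (0.68 ± 0.39, limma adjusted p = 0.409) and rose with it (± 0.18, 0.0472).

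Ccr7, the receptor that leads T lymphocytes to lymph nodes, had −4.10, −3.40 and −3.45 in exoNOD cells, against −4.28, −4.21 and −4.45 in control cells (change 0.67 ± 0.22, limma adjusted p = 0.231). Il2ra, the alpha chain of the interleukin 2 receptor, had −5.02, −4.35 and −4.51 in exoNOD cells, against −5.05, −5.15 and −5.25 in control cells (0.52 ± 0.22, limma adjusted p = 0.287). Il2rb, the beta chain, had −4.97, −5.02 and −5.04 in exoNOD cells, against −5.55, −5.67 and −5.32 in control cells (0.50 ± 0.19, limma adjusted p = 0.258). In all 3 genes the groups did not overlap, but for Ccr7 and Il2ra exoNOD replicate 1 lay near the controls, whereas for Il2rb the 3 exoNOD arrays were alike. The cytokine gene Il2 had a difference of 0.60 (0.317), with almost none in pair 1 (0.0032), and the shared receptor chain gene Il2rg one of 0.17 (0.723).

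Of the transcription factors, 2 of 4 were tested and 0 passed. Foxp3, which defines regulatory T lymphocytes, had −3.51, −3.12 and −3.08 in exoNOD cells, against −3.80, −3.79 and −3.54 in control cells (change 0.48 ± 0.17, limma adjusted p = 0.253). The groups did not overlap, although exoNOD replicate 1 and control replicate 3 nearly met. Bcl11b, needed for commitment to the T lineage, had a difference of 0.55 (0.314) near the edge of detection. Lef1 was detected on 1 exoNOD array and 0 control arrays. Tcf7, its partner in early T lymphocytes, was detected with 1 of its probes on exoNOD replicates 1 and 3 (−6.16 and −3.87, with −6.15 on replicate 2), against 0 control arrays (−7.75, −7.34 and −7.20), while the other probe was detected on 0 arrays.

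Of the cytotoxic effector genes, 4 of 4 had a positive change, although Gzmb entered the test only through the exoNOD arrays, and Gzma rose with the block. Gzma, which encodes the secreted protease granzyme A, had −2.38, −2.25 and −2.11 in exoNOD cells, against −3.13, −3.02 and −3.11 in control cells. All exoNOD arrays lay far above all controls, each group was tight, and the signal was 1.79-fold that of control cells (log2 change 0.84 ± 0.14). Gzma had the lowest adjusted p of the 27 genes (limma adjusted p = 0.0701) and rose with the replicate block (0.00450). Gzmb, which encodes granzyme B, had −5.29, −4.95 and −4.96 in exoNOD cells, against −5.67, −6.38 and −5.73 in control cells, 1.81-fold (0.86 ± 0.25, limma adjusted p = 0.204, 0.0672 with the block). The groups did not overlap, but control replicate 2, the lowest, was not above background.

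Prf1, which encodes the pore-forming perforin, had −0.65, −0.21 and −0.31 in exoNOD cells, against −0.57, −0.76 and −0.84 in control cells (change 0.33 ± 0.14, limma adjusted p = 0.295). Nkg7, a protein of cytotoxic granules, had 1.19, 1.58 and 1.51 in exoNOD cells, against 1.18, 1.07 and 1.21 in control cells (0.28 ± 0.12, limma adjusted p = 0.305). In both genes exoNOD replicate 1 lay within the controls and the later scanned exoNOD arrays lay above them. A second Nkg7 probe was detected on 0 arrays, so the bright and the dim probe of this gene disagree on whether it is detected at all.

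**Figure D2:**
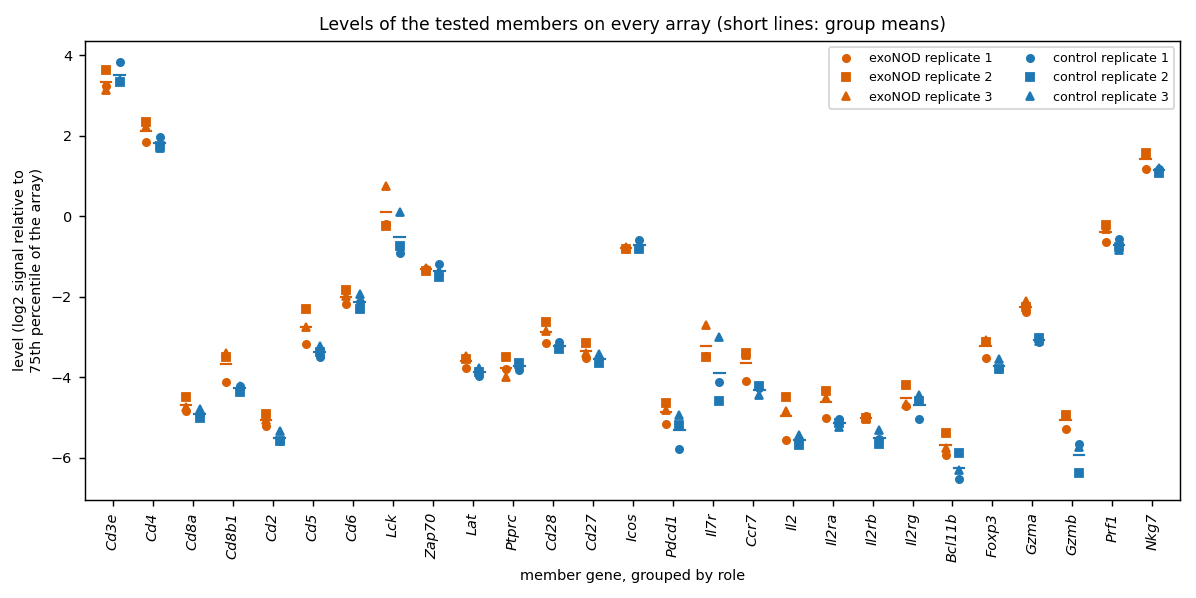
Levels (log2 signal relative to the 75th percentile of the array) of the 27 tested genes on the exoNOD arrays (orange, left of each pair) and control arrays (blue), with a symbol for each replicate and short lines for group means. The groups separate for Gzma, and replicate 3 is high in both groups for Lck and Il7r; heights are not comparable between genes, which have different probes.

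Over the list, 24 of the 27 tested genes had a positive change and Cd3e, Icos and Ptprc a negative one, against a positive change in 55.4% of all 25780 genes tested. Bcl11b and Gzmb, which entered the test only through the exoNOD arrays, count among the 24. After quantile normalization 21 of the 27 were positive, against 45.9% of all genes. The median change was 0.43, against 0.04 over all genes. Without the block limma called 0 of the 27 genes, where the share called in all genes was 0.105% (0.101% higher and 0.00388% lower). An unadjusted p under 0.05 was reached by 9 of the 27, all of them higher, and by 13.3% of all genes as higher and 3.37% as lower. With the replicate block 4 of the 27 rose and 0 fell, where 8.75% of all genes were called, 6.92% as higher and 1.83% as lower. The 4 genes were Gzma, Lck, Il7r and Cd5, and all 3 of their pairs moved the same way. In 10 of the 27 genes all exoNOD arrays lay above all controls, as in 14.6% of all genes, and in 0 genes below, as in 7.78%.

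**Figure D3:**
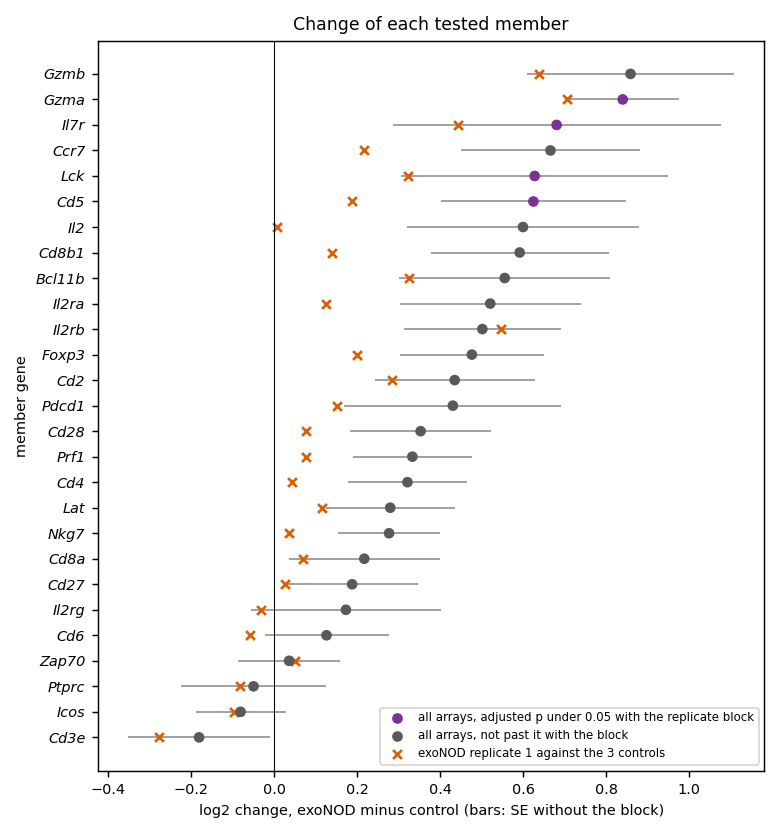
Log2 change (exoNOD minus control) of each tested gene, with the SE of the fit without the block, in purple where the adjusted p with the replicate block was under 0.05 and in grey otherwise; orange crosses give exoNOD replicate 1 against the mean of the 3 controls scanned with it. Gzmb and Gzma stand at the top (0.86 and 0.84, the first including control replicate 2, which was not above background) and Cd3e at the bottom (−0.18), and most crosses lie nearer to 0 than their points.

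The exoNOD arrays scanned later read higher than the earlier one for most of these genes. ExoNOD replicate 1 was the lowest of the 3 exoNOD arrays in 21 of the 27 genes, and its difference from the mean of the controls scanned with it was smaller in size than the group difference in 22 of 27. The median of those within-scan differences was 0.11, against 0.43 with all arrays, and 22 of 27 were positive. Over all genes the within-scan median was 0.02, and 53.8% were positive. For Gzma the within-scan difference was 0.71, for Gzmb 0.64, for Il2rb 0.55, for Il7r 0.44, for Lck 0.32 and for Cd5 0.19. With scan as a block limma called 0 genes of the list and 0 of all genes (929 at an unadjusted p under 0.05), but this fit sets a single exoNOD array against the 3 controls, so its 0 calls say little. For the later scan, exosome treatment and scan cannot be told apart. Without exoNOD replicate 1 limma called 3 of the 27, Cd8b1, Ccr7 and Gzma, where 4.69% of all genes rose. With the block and without pair 1 it called 12, where 13.3% of all genes rose, without pair 2 only Lck, where 1.38% rose, and without pair 3 again 4 genes, where 5.76% rose.

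Changes also followed brightness over the whole array. When all tested genes were divided into 4 equal groups by level, the median change was 0.27 in the dimmest group, 0.11 in the next, −0.04 in the third and −0.05 in the brightest. Of the tested T lymphocyte and cytotoxic genes, 11 belonged to the dimmest group, with a median of 0.52, and 9 in the next, with a median of 0.35. The 4 genes of the third group had a median of 0.18 and the 3 of the brightest 0.28. In all, 22 of 27 exceeded the median of all genes in their own group of levels, and within the first scan 19 of 27 did. Within that scan the 11 genes of the dimmest group had a median of 0.15, against 0.11 for all genes of that group. After quantile normalization the medians of all genes shrank to 0.04, −0.01, −0.04 and −0.04, and those of the list became 0.27, 0.21, 0.16 and 0.30. With that normalization and the block, Gzma (0.72, limma adjusted p = 0.0272) and Lck (0.61, 0.0146) still passed, while Il7r (0.0968) and Cd5 (0.0963) did not, and 3.18% of all genes rose. With the block, Gzma and Lck also passed in the authors' values, where 3.35% of all genes rose, and 3 of the 27 passed with marked spots kept, where 6.65% rose. Scaling by the median with the block called 7 of the 27, where 8.13% rose, and normexp with the block called 0, where 0.52% rose.

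**Figure D4:**
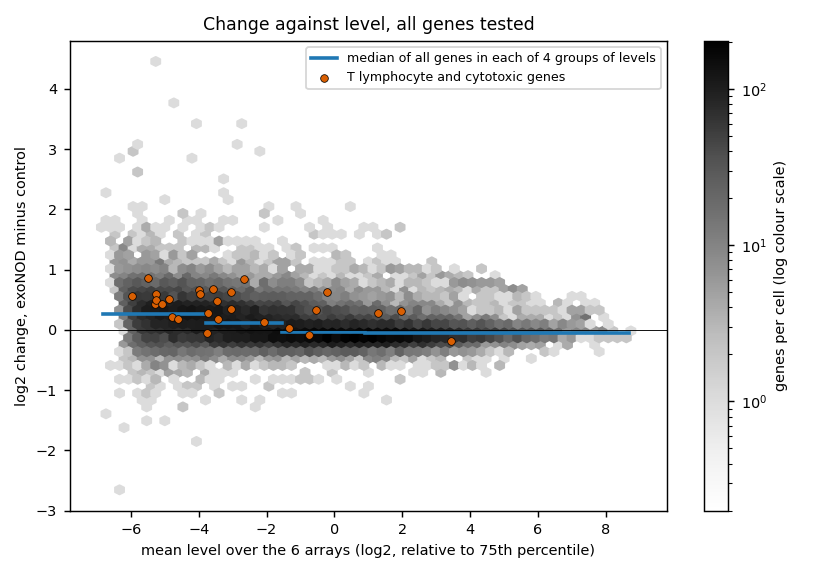
Log2 change (exoNOD minus control) against mean level for all 25780 genes (grey, darker where more genes fall), with the median of all genes in each of 4 equal groups of levels (blue lines) and the 27 tested genes (orange). The blue lines step down from 0.27 to −0.05 with brightness, and 22 of the 27 orange points lie above the line of their group.

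To show the DNA in front of the genes that rose with the block, their RefSeq promoter windows in build GRCm38.p6 are given, from 250 bases before to 50 bases after a gene's start, on the strand of the gene. All lie on the minus strand: Gzma at chr13:113100932-113101231, Lck at chr4:129573592-129573891 for one start and chr4:129558323-129558622 for the other, Il7r at chr15:9529827-9530126 and Cd5 at chr19:10738925-10739224. Capitals mark AGGAAG, a sequence that ETS factors bind, and TGTGGT, one that RUNX factors bind, on either strand. The reverse forms read CTTCCT and ACCACA, and other forms of either site were not marked. Both families act in lymphocytes, and no matches overlap.
Gzma: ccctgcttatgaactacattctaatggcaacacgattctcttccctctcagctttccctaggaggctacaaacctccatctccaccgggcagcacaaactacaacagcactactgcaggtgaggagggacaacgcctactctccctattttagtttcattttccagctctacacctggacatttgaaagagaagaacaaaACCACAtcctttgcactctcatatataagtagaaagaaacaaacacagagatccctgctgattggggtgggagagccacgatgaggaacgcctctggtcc
Lck, first start: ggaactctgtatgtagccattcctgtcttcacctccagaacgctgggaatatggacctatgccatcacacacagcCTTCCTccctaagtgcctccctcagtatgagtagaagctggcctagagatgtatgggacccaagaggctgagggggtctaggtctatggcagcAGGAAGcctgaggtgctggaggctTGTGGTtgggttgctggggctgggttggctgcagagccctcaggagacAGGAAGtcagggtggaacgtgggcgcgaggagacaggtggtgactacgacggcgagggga
Lck, second start: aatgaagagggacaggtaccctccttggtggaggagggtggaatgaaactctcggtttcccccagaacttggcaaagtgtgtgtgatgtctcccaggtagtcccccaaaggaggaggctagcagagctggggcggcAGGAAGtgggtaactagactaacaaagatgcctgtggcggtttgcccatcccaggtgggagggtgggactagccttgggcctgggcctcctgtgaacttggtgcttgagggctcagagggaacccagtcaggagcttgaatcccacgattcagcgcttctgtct
Il7r: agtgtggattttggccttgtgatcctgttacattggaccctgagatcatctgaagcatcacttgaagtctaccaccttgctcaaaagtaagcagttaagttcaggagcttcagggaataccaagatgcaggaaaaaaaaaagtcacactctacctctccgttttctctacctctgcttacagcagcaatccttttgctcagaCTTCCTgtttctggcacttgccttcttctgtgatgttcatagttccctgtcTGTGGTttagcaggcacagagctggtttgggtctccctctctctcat
Cd5: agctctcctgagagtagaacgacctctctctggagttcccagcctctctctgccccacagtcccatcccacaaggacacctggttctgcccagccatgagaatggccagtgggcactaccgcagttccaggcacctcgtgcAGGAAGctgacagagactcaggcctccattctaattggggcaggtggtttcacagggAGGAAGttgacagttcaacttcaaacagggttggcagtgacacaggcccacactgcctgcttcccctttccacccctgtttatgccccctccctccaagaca
The letters AGGAAG were found 3 times in the first Lck window and 2 times in that of Cd5. They were found once each in the second Lck window and that of Il7r, and 0 times in that of Gzma. The letters TGTGGT were found once each in the windows of Gzma, Il7r and the first start of Lck. Of all 32851 windows of this length, 35.4% hold AGGAAG and 16.8% hold TGTGGT, and a match describes letters, not binding. Promoter windows were matched by symbol for 25 of the 35 genes.

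Other genes of the same systems gave mixed counts. Among 25 tested genes of T cell receptor signalling the median change was 0.06, and 2 rose with the block, near the share of all genes that rose (6.92%). These were Rasgrp1, a Ras activator downstream of the receptor (log2 change 1.08, limma adjusted p = 0.288, 0.00162 with the block), and the adaptor gene Sla2 (0.68, 0.161, 0.0490 with the block). Of 25 tested genes of T cell subsets, activation and homing (median 0.38), 4 rose and 2 fell with the block, beside 6.92% and 1.83% of all genes. That median includes genes that entered the test only through the exoNOD arrays. Tnfrsf9, a costimulatory receptor also called 4-1BB, averaged 2.15 ± 0.49 in exoNOD cells and 1.09 ± 0.09 in control cells (SD, n = 3 each). Its change was 1.06 (limma adjusted p = 0.0878, 0.00223 with the block), and its difference within the first scan was 0.50.

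Among 21 tested genes of cytotoxic granules and effectors (median 0.32), 0 passed without the block and 5 rose with it, beside 6.92% of all genes. Ifng, which encodes the T lymphocyte cytokine interferon gamma, had −5.58, −4.81 and −4.40 in exoNOD cells, against −7.12, −6.87 and −6.58 in control cells. Detected in each exoNOD sample and in 0 controls, it entered the test only through the exoNOD arrays. Its mean signal over the exoNOD arrays was at least 2.85-fold higher (limma adjusted p = 0.0750, 0.00224 with the block). This bound sets the exoNOD mean against the lowest detected signal of each control array or the gene's own, whichever was higher. Within the first scan the log2 difference of Ifng was 1.28, below the log2 bound of 1.51 from all arrays. Srgn, the proteoglycan that packs granules, had 1.25, 0.97 and 1.74 in exoNOD cells, against 0.44, 0.04 and 0.69 in control cells (0.93 ± 0.22, limma adjusted p = 0.133, 0.000598 with the block). Cst7, an inhibitor of granule proteases, had a change of 1.68 (limma adjusted p = 0.0924, 0.00414 with the block). It was detected on 5 of the 6 arrays, and control replicate 1 (−6.82) lay far below the other controls (−5.64 and −5.45). Like Ifng, Cst7 thus entered the test only through the exoNOD arrays. Both count in the median above and among the 5 that rose. With the block the death ligand gene Fasl also rose, by 1.12 (limma adjusted p = 0.159, 0.0428 with the block), as did Stxbp2, which acts in granule release, by 0.32 (0.278, 0.0497 with the block).

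Lists of markers of other leukocytes differed in direction, and their part in the changes above was not tested. Of the B lymphocyte markers, 13 of 14 tested had a positive change (median 0.28). With the block 3 of the 14 rose, beside 6.92% of all genes. The mean level of the tested B lymphocyte markers lay between −3.65 and −3.46 on exoNOD arrays, against −4.10 and −3.97 on control arrays. Ms4a1, which encodes CD20, was detected in each exoNOD sample and in 0 controls. Its mean signal over the exoNOD arrays was at least 3.15-fold higher (limma adjusted p = 0.0830, 0.00858 with the block). Within the first scan its log2 difference was 1.44, below the log2 bound of 1.65 from all arrays. Ms4a1 thus entered the test only through the exoNOD arrays, and Blk was detected on 4 of the 6 arrays. Both count in the totals and mean levels above. Cd79b (log2 change 1.05, limma adjusted p = 0.232, 0.00478 with the block) and Cr2 (0.84, 0.169, 0.0237 with the block) also rose with the block. Pax5, a transcription factor of the B lineage, was detected on all arrays with a difference of 0.01, while Fcrla and Bank1 were detected on none. Natural killer markers had a median of 0.28 over 6 tested genes, 4 of them positive. Klrc1 rose with the block (log2 change 1.11, limma adjusted p = 0.205, 0.0249 with the block). It was detected on 5 of the 6 arrays, entered the test only through the exoNOD arrays and counts in the totals and mean levels of this list. Ncr1, Klrk1 and Klre1 were detected on no array. The mean level of the tested natural killer markers was between −3.47 and −3.11 on exoNOD arrays, against −3.69 and −3.33 on control arrays, which overlap.

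Macrophage markers had a median of −0.12, with 11 of 14 changes negative. With the block 1 of the 14 rose and 4 fell, beside 6.92% and 1.83% of all genes. Mrc1, the mannose receptor, was the 1 that rose with the block (log2 change 2.20, limma adjusted p = 0.0599, 0.00175 with the block). It was detected on 4 of the 6 arrays and entered the test only through the exoNOD arrays, which favours a positive change. Itgam, which encodes CD11b, fell with the block (−0.50, 0.0830, 0.00891 with the block), as did Cx3cr1 (−1.11, 0.145, 0.00479), Adgre1 (−0.87, 0.257, 0.0157) and Aif1 (−0.62, 0.265, 0.00652). General leukocyte genes had a median of 0.24, with 10 of 13 positive, and dendritic cell markers a median of 0.19, with 6 of 6 positive. With the block 1 of the 13 general leukocyte genes rose (Was) and 1 fell (Coro1a), beside 6.92% and 1.83% of all genes. Of the 6 dendritic cell markers 1 rose with the block (Batf3), beside the same 6.92%. Mean levels of the general leukocyte genes were between −2.05 and −1.35 on exoNOD arrays and between −2.02 and −1.67 on control arrays, so these ranges overlapped. Endocrine genes had a median of −0.20, with 14 of 14 changes negative, and 5 fell with the block, beside 1.83% of all genes. Within the first scan the median turned to −0.06 for general leukocyte genes and to −0.0037 for the other receptor signalling genes. It was 0.22 for B lymphocytes, 0.12 for the subset, activation and homing genes and 0.11 for the T lymphocyte and cytotoxic genes. It was 0.10 for the other cytotoxic genes, 0.09 for natural killer cells and 0.09 for dendritic cells. For macrophages it was −0.30 and for endocrine genes −0.11. After quantile normalization the receptor signalling genes had −0.04, natural killer cells 0.09, B lymphocytes 0.13 and general leukocyte genes 0.21. The subset, activation and homing genes had 0.20 and the other cytotoxic genes 0.24, against 0.27 for the T lymphocyte and cytotoxic genes. The mean level of the T lymphocyte and cytotoxic genes tested was −2.98, −2.60 and −2.68 on exoNOD arrays, against −3.17, −3.22 and −3.03 on control arrays.

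**Figure D5:**
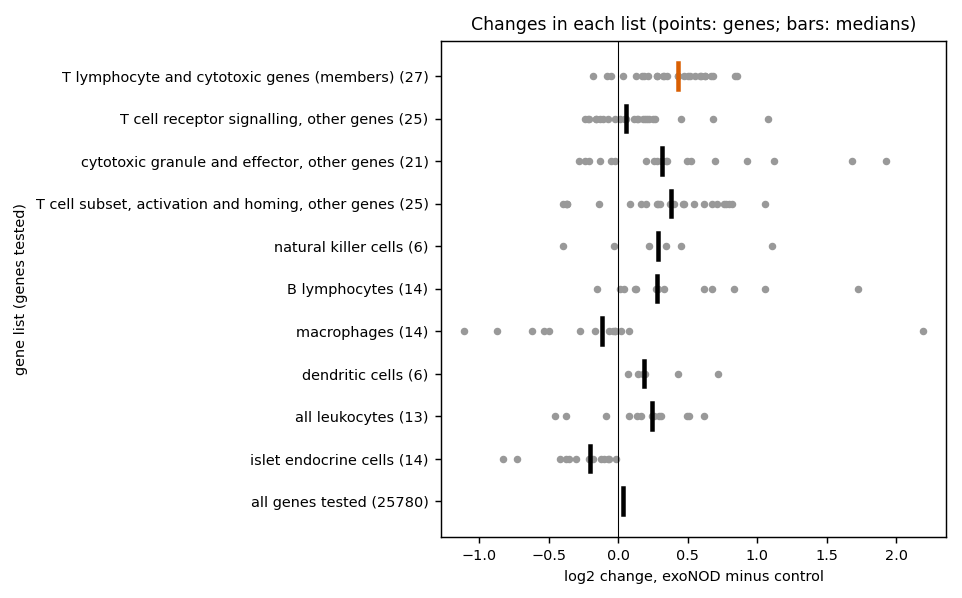
Log2 change (exoNOD minus control) of the tested genes of each list (points) and their medians (bars; orange for the T lymphocyte and cytotoxic genes), with the median of all genes tested at the bottom. With all arrays the medians run from −0.20 for endocrine genes to 0.43 for the T lymphocyte and cytotoxic genes. Within the first scan, not drawn here, the median of B lymphocytes (0.22) exceeded that of the T lymphocyte and cytotoxic genes (0.11).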

How the data were processed

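Scanner images were quantified by the authors with Feature Extraction software, per the file headers. The deposited processed intensity of a spot is background-subtracted and spatially detrended within its array. Other deposited values are yes-or-no flags for detection and unevenness. The authors' deposited log2 values cover 31766 of 39429 probes and lie close to a quantile normalization (median absolute difference 0.00185 to 0.00325); their method is not given in the sources used here.

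Marked spots were left out, log2 signals of a probe's spots were averaged, and the array's 75th percentile was subtracted (812 to 890). A probe counted as well above background when at least 0.5 of its spots were. Probes so on all arrays of at least 1 group were kept (31054), and a gene was represented by its brightest kept probe (25780 genes, 17252 with a symbol). The number of arrays limits the precision. Groups were compared in limma 3.58.1 (R 4.3.3; lmFit, eBayes with trend, Benjamini-Hochberg over all genes, threshold 0.05).

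Deviations from group means correlated across genes at 0.366, 0.280 and 0.481 for the equal-numbered pairs, all above 0.1, and from −0.341 to 0.00875 for the rest. P-values measure the spread between these arrays. Normexp used the median spot signal, since these files hold no mean signal. The members and lists were chosen with earlier results of these data known. Values on every array are given for members that passed in either fit, the 12 with the lowest unadjusted p and preset ones. Other lists' genes were named from their 4 lowest p or those past the threshold, some without values on every array. Pax5, Blk, Fcrla, Bank1, Ncr1, Klrk1 and Klre1 were chosen after their values were seen.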

Additional observations from a re-analysis of the deposited data

How the results depend on the processing

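Without the block limma called 27 genes. The count was 2256 with the replicate block, 157 with normexp, 13 with scaling by the median, 0 with no filter on dim probes (4637 at an unadjusted p under 0.05), 0 with scan as a block (929) and 0 within the first scan (1143); both of these rest on 1 exoNOD array, assumed to vary like the controls, and show no dependence by their 0 calls. Combined with the block it was 1196 after quantile normalization, 1257 in the authors' values, 189 with normexp, 4173 with median scaling, 2161 with marked spots kept and 2633 over single probes; without pair 1, 2 or 3 it was 4162, 431 or 1729. Leaving out 1 array gave 0 to 1269 genes: the highest count came when exoNOD replicate 1 was dropped, 75 when control replicate 3 was, 2 when exoNOD replicate 3 was, and 0 for each of the other arrays. Of the list, 0 were called without the block and 4 with it. With the block, 2 were called after quantile normalization, the same 2 from the authors' table (Gzma and Lck), 0 with normexp, 7 with median scaling, 3 with marked spots kept and 4 over single probes. Without pair 1, 2 or 3 the block called 12, 1 or 4, and leaving out 1 array without the block called 0 to 3. The list's median change was 0.76 with normexp, where the median of all genes was 0.35, and 0.11 with scan as a block or within the first scan. Median scaling moved the median of all genes to −0.11 and that of the list to 0.29.

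Directions reversed only for members that passed nowhere. Normexp, with or without the block, gave 0.087 for Icos and 0.64 for Ptprc. Quantile normalization gave −0.0029 for Cd8a, −0.019 for Zap70 and −0.045 for Il2rg, and the authors' values gave −0.0067, −0.023 and −0.051; median scaling gave −0.015 for Cd6 and −0.11 for Zap70, each also with the block. Within the first scan Cd6 had −0.059 and Il2rg −0.032. Icos had 0.17 as the mean of its probes. Leaving out 1 array gave −0.18 to 0.065 for Ptprc and −0.042 to 0.12 for Zap70. Ptprc had 0.084 without pair 3, Zap70 −0.025 without pair 2, Cd6 −0.039 without pair 2, and Cd3e 0.027 without pair 1. The causes were not tested. Fits without single pairs, combined with the block, within the first scan or with marked spots kept were chosen after seeing the data. By the weaker flag of a significant positive signal, 33 of 35 genes were detected on all arrays, against 25 well above background.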
